A study of Arabidopsis thaliana with 18 samples.

Results

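The 6 Arabidopsis genes described here act in RNA splicing and are known to set the period of the circadian clock. They are STIPL1 (AT1G17070), PRMT5 (AT4G31120), GEMIN2 (AT1G54380), SICKLE (AT4G24500), LSM4 (AT5G27720) and LSM5 (AT5G48870). The genes were chosen by gene ID and not by a threshold on their values, but with earlier results of these data known. They are 6 of the 32436 genes or loci counted in the series. For each gene the reads per library were taken, together with the reads on each of its splice junctions and exon bins. An exon bin is a stretch of exon that an annotated transcript holds whole or not at all. Usage is the percentage of a gene's reads that hold a given junction or bin.

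The study measured full-length transcripts of whole Arabidopsis thaliana seedlings by Iso-Seq, a long-read PacBio method. Its title names XCT (XAP5 CIRCADIAN TIMEKEEPER), RNA splicing and the clock. The 6 genotypes were the mutants xct-2, xct-1 and prl1-2, the xct-2 mutant with an XCT::XCT transgene, the xct-1 mutant with a transgene labelled XCT::SpXAP5, and the wild type Col-0, each with 3 biological replicates. The labels give neither the nature of the alleles nor whether a transgenic line is 1 clone. The authors' deposited table names the first transgene XCT-YFP-HA, and XCT::SpXAP5 has no feature of its own among the counts. Seeds of every genotype were stratified in the dark for 3 days, and the plants then grew at 22 °C under continuous light (55 µmol m-2 s-1). About 60 mg of seedlings was taken every 2 h over 24 h from day 11 and pooled, while another label gives an age of 10 days. A library therefore averages a gene over the circadian day and holds no phase or period.

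Spliceosomes are built anew on each intron from small nuclear ribonucleoproteins, and are taken apart again after the intron has left as a lariat. Of the 6 genes, GEMIN2 encodes an assembly factor of these particles, and LSM4 and LSM5 encode proteins of the LSm rings that hold the U6 RNA in the nucleus and promote decapping of mRNA in the cytoplasm. PRMT5 encodes a methyltransferase that places symmetric dimethylarginine on Sm and LSm proteins, STIPL1 encodes a relative of the yeast disassembly factor Ntr1, and SICKLE encodes a proline-rich protein with roles in splicing and microRNA production. In mutants of these genes the clock runs with an altered period in at least some conditions, and splicing of clock transcripts is altered.

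Depth was 459150 to 1046273 gene reads per library. Reads on PRL1, which encodes a protein of the spliceosome-associated MOS4 complex, were 0 in all 3 prl1-2 libraries, against 33, 26 and 10 in Col-0. XCT had 654, 284 and 334 reads in the xct-2 XCT::XCT line, 4, 8 and 4 in xct-2, and 8, 16 and 2 in Col-0. It had 11, 68 and 10 in xct-1, 7, 8 and 2 in the xct-1 XCT::SpXAP5 line and 0, 8 and 3 in prl1-2. No xct-2 read held XCT exon bins 1 to 3. The XCT junction at chr2:9067108-9067195 was held by 0 of 89 reads in xct-1 and 0 of 17 in the xct-1 XCT::SpXAP5 line, against 26 of 26 in Col-0. The tissue label was checked with marker genes. All 5 green-tissue markers and all 4 root markers were detected, with summed levels of 1990 to 13818 and of 2.37 to 32.4 CPM (reads normalised to library size) over the libraries. Pollen markers reached 2.06 CPM and seed storage markers 18 CPM at most. Junction reads per gene read, a value that rises with the number of introns a read spans, ran from 7.05 to 11.5, with 9.84, 7.85 and 9.15 in prl1-2 and 8.81, 7.93 and 11.5 in Col-0. Its part in the results was not tested beyond a fit that held it as a covariate.

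The 6 genes were covered unequally. PRMT5 had 1088 reads over the 18 libraries, with 25 to 99 per library, and GEMIN2 had 390, with 10 to 42. STIPL1 had 211 reads and SICKLE 117. LSM4 had 83, with none in 2 libraries, and LSM5 had 14, with none in 9 libraries. A junction was tested where at least 20 reads of its gene held it and at least 20 did not, summed over the libraries. This left 9 of the 22 junctions of PRMT5 and all but 1 of the 4 junctions of GEMIN2. None of the junctions of SICKLE, LSM4 and LSM5 could be tested, and STIPL1 has no intron. The tested junctions were thus 12 of 40, and because the rule needs reads that lack the junction, nearly complete introns are outside it.

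The differences called against Col-0 lay in GEMIN2, first of all in its first intron. In prl1-2 most reads joined the annotated 3′ splice site, while in every other genotype, Col-0 included, most joined a site that the annotation lacks. GEMIN2 spans chr1:20297965-20300908 on the minus strand of TAIR10. The annotated first intron covers chr1:20299245-20300121 and is 877 bases long. The unannotated junction begins at the same 5′ site and ends 445 bases earlier, with an intron of 432 bases at chr1:20299690-20300121. A transcript that uses it keeps the 445 bases that the annotated intron removes, and no exon bin of the annotation covers them. Of the 390 GEMIN2 reads, 369 held one of these junctions, and 231 of them (62.6%) held the unannotated one.

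In prl1-2, 7, 22 and 16 reads joined the annotated site and 5, 4 and 11 the unannotated site, which put the annotated site at 58.3%, 84.6% and 59.3% of the reads on either. In Col-0, 5, 4 and 2 reads joined the annotated site and 23, 7 and 8 the unannotated site, or 17.9%, 36.4% and 20.0%. The prl1-2 and Col-0 libraries did not overlap, and the Wilson intervals of single libraries were wide. The share of all junctions without such overlap was not counted. The 95% intervals ran from 32.0% to 80.7%, from 66.5% to 93.9% and from 40.7% to 75.5% in prl1-2, and from 7.88% to 35.6%, from 15.2% to 64.6% and from 5.67% to 51.0% in Col-0. They cover counting error only.

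The annotated site took 23.5%, 45.0% and 35.7% of these reads in xct-2 and 26.1%, 45.7% and 27.3% in xct-1. It took 30.3%, 35.3% and 21.1% in the xct-2 XCT::XCT line and 15.0%, 40.0% and 18.8% in the xct-1 XCT::SpXAP5 line. The xct-2, xct-1 and transgenic libraries overlapped those of Col-0. All 3 prl1-2 libraries lay above 50% and 0 of the 15 others did, the highest of which stood at 45.7%. In each of the 6 genotypes replicate 2 gave the highest value. The replicate 2 libraries had 7.53 junction reads per gene read in xct-2, 7.05 in xct-1, 7.85 in prl1-2, 10.9 in the xct-2 XCT::XCT line, 11.0 in the xct-1 XCT::SpXAP5 line and 7.93 in Col-0. The labels name no batch. Deviations of gene levels from the genotype mean had a correlation of 0.654 between the replicate 2 libraries of prl1-2 and Col-0. What libraries of 1 number share beyond such correlations was not tested.

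**Figure D1:**
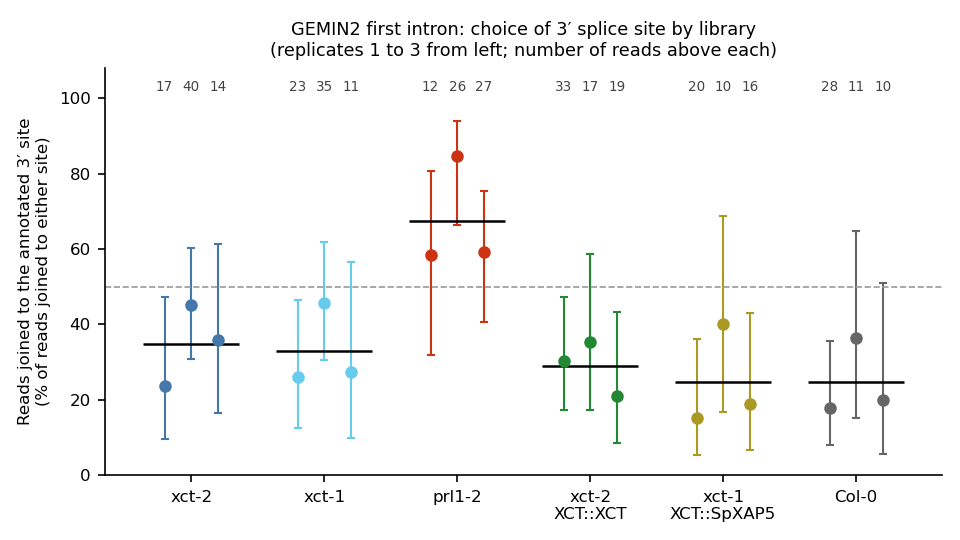
Percentage of GEMIN2 reads joined to the annotated 3′ site of the first intron, among reads joined to either site, in each library of the 6 genotypes. Points are libraries with 95% Wilson intervals, black lines are means of 3 libraries, and the number of reads stands above each point. The 3 prl1-2 libraries lie at 58.3% to 84.6%, and the other 15 at 15.0% to 45.7%.

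With each junction set against all other reads of the gene, 3 of the 12 tested junctions were called in prl1-2 over Col-0, 1 higher and 2 lower, at an adjusted p under 0.05. Over all 50590 junctions tested, 9.74% were called in this comparison, 0.18% higher and 9.56% lower. The median log2 odds difference of the 12 junctions was -0.83, beside -0.81 over all junctions tested. Usage of the annotated first-intron junction of GEMIN2 averaged 61.0% ± 12.9 in prl1-2 and 23.1% ± 8.84 in Col-0 (SD, n = 3 each), a log2 odds difference of 2.51 (SE 0.660, 95% interval 1.14 to 3.87, adjusted p = 0.0193, edgeR's quasi-likelihood test). Usage of the unannotated junction averaged 29.6% ± 13.8 in prl1-2 and 71.1% ± 12 in Col-0, a log2 odds difference of -2.80 (SE 0.690, 95% interval -4.22 to -1.37, adjusted p = 0.0137 by the same test). Both junctions draw on the same reads, so the pair is 1 difference seen from both sides. The SEs and 95% intervals of edgeR values were computed back from the F statistic of each test and restate it. With an offset by gene count, whose values are log2 ratios of usage, or with diffSpliceDGE, whose values are log2 fold changes relative to the gene's other tested junctions, 0 of the 12 were called. The annotated junction then gave 1.52 and 1.65 (adjusted p = 0.128 and 1 by edgeR) and the unannotated one -1.39 and -1.22 (adjusted p = 0.0851 and 1).

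The choice between the sites was also fitted on the reads of these junctions alone, a setting chosen after the data were seen. The annotated site then gained 2.89 in prl1-2 over Col-0 on the log2 odds scale (SE 0.653, 95% interval 1.60 to 4.17, adjusted p = 0.00146, edgeR's quasi-likelihood test), where 3.41% of the 8040 junctions that could be fitted this way were called. The call depended on 2 libraries. Without prl1-2 replicate 2 the gain was 2.25 (adjusted p = 0.0717), and without Col-0 replicate 1 it was 2.44 (adjusted p = 0.0980). With all other reads of the gene as the comparison, leaving out prl1-2 replicate 2 gave 2.00 and -2.19 for the annotated and the unannotated junction (adjusted p = 0.0818 and 0.0620), and leaving out Col-0 replicate 1 gave 2.18 and -2.23 (adjusted p = 0.123 and 0.119).

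The XCT genotypes were set against Col-0 by the same site-choice fit, and none was called. The share of junctions called by this fit was 19.2% in xct-2, 13.9% in xct-1, 0.274% in the xct-2 XCT::XCT line and 15% in the xct-1 XCT::SpXAP5 line over Col-0. The annotated site differed by 1.01 in xct-2 (95% interval -0.28 to 2.30, adjusted p = 0.366, edgeR's quasi-likelihood test), by 0.91 in xct-1 (-0.40 to 2.21), by 0.46 in the xct-2 XCT::XCT line (-0.86 to 1.78) and by -0.06 in the xct-1 XCT::SpXAP5 line (-1.53 to 1.41). The upper bounds for xct-2, xct-1 and xct-2 XCT::XCT lie above 1.60, the lower bound of the difference in prl1-2, so these intervals hold gains of that size. Between each transgenic line and its mutant the difference was -0.55 for xct-2 XCT::XCT over xct-2 (-1.71 to 0.60) and -0.96 for xct-1 XCT::SpXAP5 over xct-1 (-2.29 to 0.36), where 20.3% and 0.0498% of junctions were called.

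The prl1-2 libraries were compared directly with the other genotypes as well, in 4 comparisons added after the data were seen. The annotated site was higher by 1.88 in prl1-2 over xct-2 (SE 0.580, adjusted p = 0.00783, 23.3% of junctions called) and by 1.98 in prl1-2 over xct-1 (SE 0.584, adjusted p = 0.00643, 18.4% called) in edgeR's quasi-likelihood test. It was higher by 2.43 in prl1-2 over xct-2 XCT::XCT (SE 0.589, adjusted p = 0.00366, 3.26% called) and by 2.94 in prl1-2 over xct-1 XCT::SpXAP5 (SE 0.663, adjusted p = 0.00015, 19% called). With all other reads of the gene as the comparison, 2 of the 12 junctions were called in prl1-2 over xct-2 (9.98% of all), 0 over xct-1 (8.7%), 4 over xct-2 XCT::XCT (11%) and 3 over xct-1 XCT::SpXAP5 (12%). The same prl1-2 libraries enter all of these comparisons and that with Col-0.

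**Figure D2:**
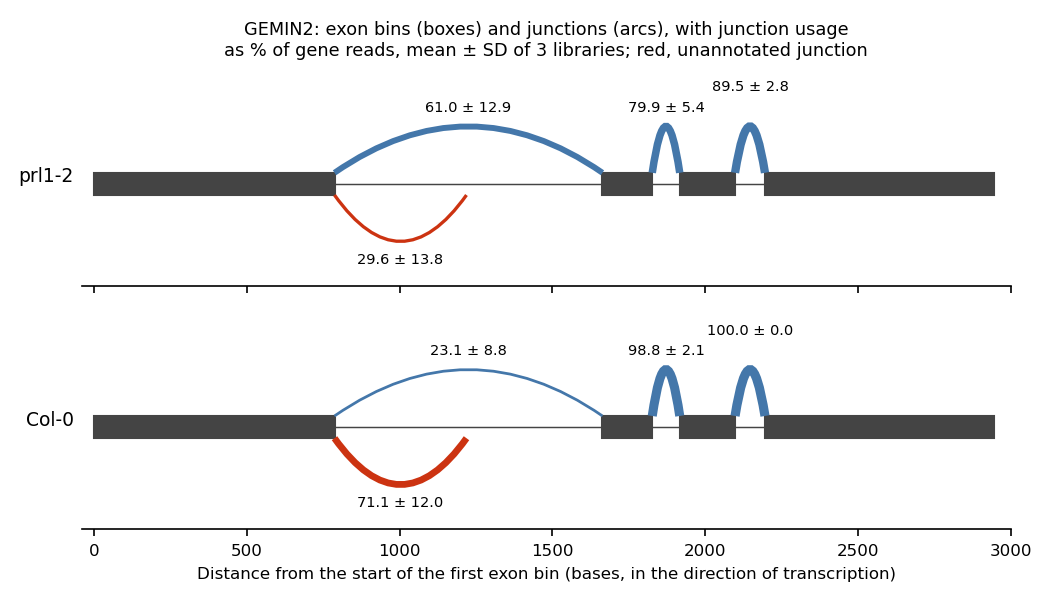
Map of GEMIN2 in prl1-2 (above) and Col-0 (below), in bases from the start of the first exon bin. Boxes are exon bins, arcs are junctions whose line width and label give usage as a percentage of gene reads (mean ± SD of 3 libraries), and the red arc is the unannotated junction. The annotated first-intron junction stands at 61.0% in prl1-2 and 23.1% in Col-0, and the unannotated one at 29.6% in prl1-2 and 71.1% in Col-0.

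Downstream of the first intron, prl1-2 also held GEMIN2 transcripts that lacked a junction. Intron 2 (chr1:20298992-20299081, 90 bases) was not joined in 3 of 13, 4 of 29 and 7 of 30 reads in prl1-2, against 1 of 28, 0 of 12 and 0 of 11 in Col-0. Each prl1-2 library lay above each Col-0 library. Lower junction usage was not particular to GEMIN2, since 9.56% of all junctions tested were called lower in prl1-2 over Col-0. The share of all junctions whose libraries separate was not counted. Usage of this junction was 79.9% ± 5.44 in prl1-2 and 98.8% ± 2.06 in Col-0 (SD, n = 3 each), a log2 odds difference of -3.20 (SE 1.01, 95% interval -5.29 to -1.11, adjusted p = 0.0472, edgeR's quasi-likelihood test). The call was lost without any 1 of the Col-0 libraries (adjusted p = 0.103, 0.0963 and 0.101), and Col-0 held 1 read without the junction in all. Without any 1 of the prl1-2 libraries fewer than 20 reads lacked the junction, so it was not tested. The offset by gene count and diffSpliceDGE gave -0.27 and -0.11 on their own scales (adjusted p = 1 in both, edgeR). Summed over libraries, 19.4% of prl1-2 reads and 1.96% of Col-0 reads lacked it, a ratio of 9.92 with a 95% counting interval of 1.51 to 419.

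In the other genotypes fewer reads lacked this junction. They were 2 of 74 in xct-2 (2.70%), 4 of 75 in xct-1 (5.33%), 0 of 71 in the xct-2 XCT::XCT line and 1 of 47 in the xct-1 XCT::SpXAP5 line (2.13%). The count of 0 in the xct-2 XCT::XCT line allows a share of up to 4.23%. The summed prl1-2 share was 4.60 times that limit, with the counting error of the prl1-2 reads left out. Not one of these genotypes was called against Col-0 for any GEMIN2 junction.

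Intron 3 (chr1:20298713-20298810, 98 bases) had too few reads without its junction to be tested. They were 1 of 13, 3 of 29 and 4 of 30 in prl1-2, against 0 of 28, 0 of 12 and 0 of 11 in Col-0. The 51 Col-0 reads allow a share of up to 5.88%. The summed 11.1% of prl1-2 was 1.89 times that limit, with the counting error of the prl1-2 reads left out. In xct-1, 5 of 75 reads lacked the junction (6.67%), in the xct-2 XCT::XCT line 2 of 71, in the xct-1 XCT::SpXAP5 line 1 of 47 and in xct-2 0 of 74.

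Introns 2 and 3 combined lacked their junction in 15.4%, 12.1% and 18.3% of intron-by-read pairs in prl1-2, in 6.0%, 5.13% and 9.09% in xct-1, and in 1.79%, 0% and 0% in Col-0. The prl1-2 libraries were above all others, and those of xct-1 were above those of Col-0 but were given no test. Each of the 4 exon bins of GEMIN2 was present in 71 of 72 prl1-2 reads. Among the 4 bins the widest spread of genotype means was in exons 2 and 3, with 94.8% in xct-1 as the lowest mean and 100% in Col-0. Reads that held neither first-intron junction were 7 of 72 in prl1-2, against 2 of 51 in Col-0.

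PRMT5 lies at chr4:15132011-15136639 on the minus strand and has 22 introns. In the summed reads, junction usage was lower in prl1-2 than in Col-0 in 18 introns and higher in 4. The split was 13 lower and 9 higher in xct-2, 10 and 11 in xct-1 with the rest equal, 2 and 20 in the xct-2 XCT::XCT line, and 9 and 13 in the xct-1 XCT::SpXAP5 line. Introns of 1 gene share reads, and all 5 genotypes share the Col-0 libraries, so these counts carry no test. The share of all junctions with lower usage was not counted. Over all junctions tested in prl1-2 over Col-0 the median log2 odds difference was -0.81, with 4838 called lower and 91 higher. A mostly lower split was thus not particular to PRMT5. The medians over Col-0 were -0.13 in xct-2, -0.09 in xct-1, 0.02 in the xct-2 XCT::XCT line and 0.03 in the xct-1 XCT::SpXAP5 line. Usage stayed high throughout: the lowest of the 22 introns was at 91.5% of reads in prl1-2 and 95.6% in Col-0.

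The prl1-2 libraries disagreed among themselves on PRMT5. Intron-by-read pairs that lacked the junction made up 0.364%, 4.20% and 4.28% in prl1-2, against 1.93%, 1.84% and 2.21% in Col-0. Replicate 1 of prl1-2, which holds 25 PRMT5 reads, was below every Col-0 library, and replicates 2 and 3 were above. The shares were 1.80%, 3.55% and 1.84% in xct-2, 1.41%, 1.21% and 3.07% in xct-1, 0.766%, 2.00% and 0.999% in the xct-2 XCT::XCT line, and 1.87%, 1.95% and 1.40% in the xct-1 XCT::SpXAP5 line.

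Of the 9 PRMT5 junctions tested, 0 were called in any of the 7 comparisons. The share of all junctions called over Col-0 was 9.74% in prl1-2, 2.52% in xct-2 and 1.08% in xct-1. It was 0.00198% in the xct-2 XCT::XCT line and 1.14% in the xct-1 XCT::SpXAP5 line over Col-0. Between the transgenic lines and their mutants it was 2.63% in xct-2 XCT::XCT over xct-2 and 0% in xct-1 XCT::SpXAP5 over xct-1. Over the 12 tested junctions of PRMT5 and GEMIN2, edgeR's quasi-likelihood test gave an unadjusted p under 0.05 for 4 in prl1-2 over Col-0, for 1 each in xct-2 XCT::XCT over Col-0, xct-1 XCT::SpXAP5 over Col-0 and xct-2 XCT::XCT over xct-2, and for 0 in the other comparisons. Over all junctions tested, the share with an unadjusted p under 0.05 was 26% in prl1-2 over Col-0, 3.69% in xct-2 XCT::XCT over Col-0, 9.1% in xct-1 XCT::SpXAP5 over Col-0, 9.58% in xct-2 XCT::XCT over xct-2, 9.9% in xct-2 over Col-0, 6.1% in xct-1 over Col-0 and 4.52% in xct-1 XCT::SpXAP5 over xct-1.

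Intron 21 of PRMT5 (chr4:15132448-15132541, 94 bases) had the widest range of genotype means among its introns. An annotated exon bin has the same span, so annotated transcripts include one that keeps it. The junction was missing from 0 of 25, 3 of 53 and 11 of 86 reads in prl1-2, against 2 of 99, 3 of 47 and 1 of 37 in Col-0. The prl1-2 libraries lay on both sides of Col-0. Summed, 8.54% of prl1-2 reads and 3.28% of Col-0 reads lacked it, a ratio of 2.60 with a 95% counting interval of 0.940 to 8.27. In xct-1 XCT::SpXAP5 the junction was present in all 144 reads, which allows up to 2.08% without it. Against Col-0 the log2 odds difference was 3.82 in the xct-1 XCT::SpXAP5 line (adjusted p = 0.473, edgeR's quasi-likelihood test), a fitted value that is no bound because no read there lacked the junction, and -1.26 in prl1-2 (95% interval -3.00 to 0.49, adjusted p = 0.365).

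Intron 6 of PRMT5 (chr4:15135238-15135329, 92 bases) was the closest to a call in prl1-2. Its junction was missing from 1 of 25, 3 of 53 and 6 of 86 reads in prl1-2, against 1 of 99, 1 of 47 and 1 of 37 in Col-0. Usage was lower in each prl1-2 library than in any Col-0 library, although the margins were 1 or a few reads. The share of all junctions that separate in this way was not counted. Lower usage was general in prl1-2 over Col-0, with a median log2 odds difference of -0.81 over all junctions tested. The log2 odds difference was -1.80 (95% interval -3.43 to -0.16, adjusted p = 0.150, edgeR's quasi-likelihood test), and the summed shares of 6.10% in prl1-2 and 1.64% in Col-0 had a ratio of 3.72 with a counting interval of 0.958 to 21.0. Intron 1 gave the smallest p in xct-2 XCT::XCT over Col-0, with a log2 odds difference of 2.23 (adjusted p = 1 by the same test).

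**Figure D3:**
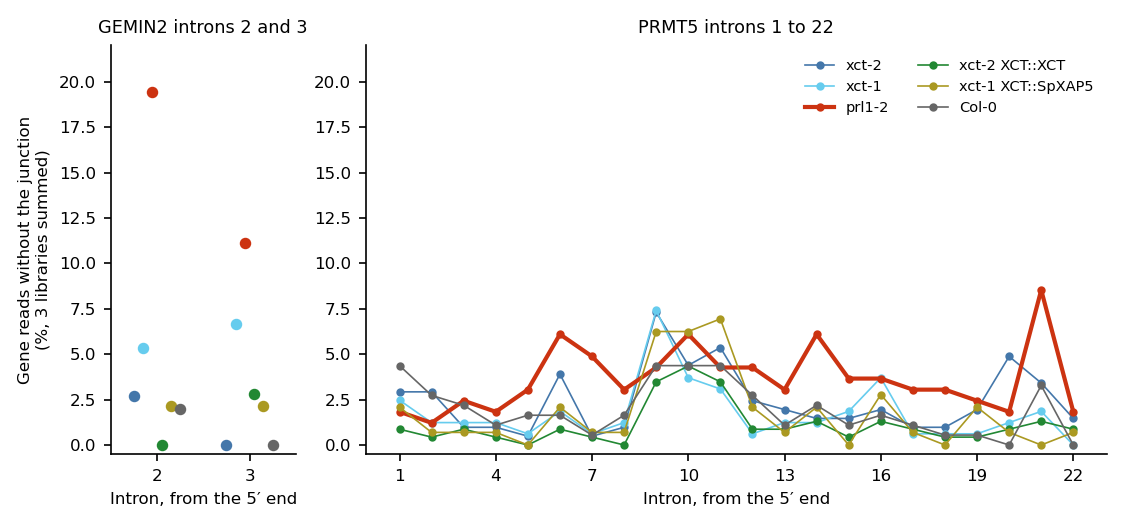
Percentage of gene reads that lack the junction of each intron, summed over the 3 libraries of a genotype, for GEMIN2 introns 2 and 3 (left) and the 22 introns of PRMT5 from the 5′ end (right). Colours are genotypes, and prl1-2 is drawn in red. For GEMIN2 intron 2 prl1-2 reaches 19.4%, against 1.96% in Col-0, whereas no PRMT5 intron exceeds 8.54% in any genotype.

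The authors' deposited tables of pairwise comparisons were read for the same features. Of the 92 features of the 6 genes, 40 had an adjusted p in the authors' deposited table for prl1-2 over Col-0, and 0 of these were under 0.05. The smallest was 0.130, for the junction of PRMT5 intron 7 (unadjusted p = 0.0129, log2 ratio -3.20 in the authors' deposited table). That junction was missing from 0 of 25, 3 of 53 and 5 of 86 reads in prl1-2, against 1 of 99, 0 of 47 and 0 of 37 in Col-0. For GEMIN2 the authors' deposited table gives unadjusted p-values of 0.000977 for the annotated first-intron junction, 0.00128 for the unannotated one, 0.00284 for intron 2 and 0.00863 for intron 3, with no adjusted p. In the authors' deposited table for xct-2 over Col-0 the smallest adjusted p was 0.0910, for PRMT5 intron 20 (unadjusted p = 0.00105). The junction of intron 20 was missing from 3 of 58, 3 of 73 and 4 of 74 reads in xct-2, against 0 of 99, 0 of 47 and 0 of 37 in Col-0. Every xct-2 library thus held reads without it and no Col-0 library did, but too few in all for the minimum of 20.

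The 5 exon bins that could be tested, 3 of PRMT5 and 2 of SICKLE, were not called in any comparison. The share called over 31056 bins was 0.0483% in xct-2, 0% in xct-1, 0.0934% in prl1-2, 0% in the xct-2 XCT::XCT line and 0% in xct-1 XCT::SpXAP5 over Col-0, 0.0708% in xct-2 XCT::XCT over xct-2, and 0% in xct-1 XCT::SpXAP5 over xct-1. The smallest unadjusted p was 0.0306, for the bin of PRMT5 intron 21 in xct-1 XCT::SpXAP5 over Col-0 (adjusted p = 0.773, edgeR's quasi-likelihood test). This was the 1 bin test with an unadjusted p under 0.05, in a comparison where 5.93% of all bins had one. The first bin of PRMT5, only 2 bases long, was reached by 67.0% of reads in the xct-1 XCT::SpXAP5 line, the lowest genotype mean, and by 70.3% ± 4.77 in Col-0 (SD, n = 3). In xct-2 XCT::XCT, the highest, it was reached by 73.6% ± 0.899.

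SICKLE (chr4:12658444-12660605, plus strand) has annotated alternatives at its first intron. Over all libraries the longer intron was joined in 109 of 117 reads and the shorter one in 4. An annotated intron of 87 bases, which other annotated transcripts keep as an exon bin, was removed in 7 of the 117 reads. The last junction was held by 19 of 23 reads in prl1-2, with 0 of 3, 12 of 13 and 7 of 7 in the libraries, against 20 of 20 in Col-0. All of the prl1-2 deficit apart from 1 read came from replicate 1, with its 3 reads. The last bin, the final 83 bases of the gene, was held by 9 of 23 reads in prl1-2 and 10 of 20 in Col-0, and its smallest unadjusted p in edgeR's quasi-likelihood test was 0.191.

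LSM4 (chr5:9815556-9817599, plus strand) has 7 introns, and LSM5 (chr5:19813346-19814554, plus strand) has 3. Of the 581 pairs of an LSM4 intron and an LSM4 read, 5 lacked the junction, 1 of them in prl1-2, 3 in xct-1 and 1 in Col-0. Of the 42 such pairs of LSM5, 3 lacked it, 2 of them in prl1-2 and none in Col-0, which had no LSM5 read. STIPL1 (chr1:5837590-5840332, plus strand) is a single exon bin, which all of its reads held. The ends of LSM5, PRMT5 and STIPL1 overlap a neighbour on the other strand by 160, 25 and 64 bases. Reads in such an overlap cannot be assigned with certainty, because the strand setting of the authors' counting is not given in the sources used here.

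Levels of the genes themselves were compared next, and 5 of the 6 passed the filter on low counts. LSM5 did not, with 2, 1 and 0 reads in xct-2, 0, 2 and 3 in prl1-2, 1, 1 and 1 in the xct-2 XCT::XCT line, 0, 2 and 1 in the xct-1 XCT::SpXAP5 line, and none in the 3 libraries each of xct-1 and Col-0. Across the 7 comparisons 0 of the 5 genes were called, and 0 had an unadjusted p under 0.05, in edgeR's quasi-likelihood test. DESeq2 called 0 of them as well. It gave no adjusted p for SICKLE and LSM4 in xct-2 over Col-0 and in xct-2 XCT::XCT over xct-2. The same held for LSM4 in xct-2 XCT::XCT over Col-0. For LSM4 in xct-1 XCT::SpXAP5 over Col-0 the unadjusted p was 0.0465 (adjusted p = 0.590, DESeq2). Few genes were called anywhere by edgeR: of 10810 genes, 0.0555% were called in xct-2, 0% in xct-1, 0.241% in prl1-2, 0.0185% in the xct-2 XCT::XCT line and 0% in xct-1 XCT::SpXAP5 over Col-0, 0.037% in xct-2 XCT::XCT over xct-2, and 0% in xct-1 XCT::SpXAP5 over xct-1. Levels are given as CPM on library sizes scaled by TMM. Fewer cells that express a gene and less RNA per cell cannot be told apart in whole seedlings.

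GEMIN2 had 28.7, 32.0 and 38.5 CPM in prl1-2, against 25.9, 14.1 and 18.4 CPM in Col-0. All 3 prl1-2 libraries lay above those of Col-0. The log2 fold change was 0.75 (SE 0.373, 95% interval -0.03 to 1.54, adjusted p = 0.873, edgeR's quasi-likelihood test), so the difference did not pass. The mean was 25.6 ± 9.21 CPM in xct-2, 26.2 ± 7.57 in xct-1, 24.3 ± 4.73 in the xct-2 XCT::XCT line, 22.5 ± 7.27 in the xct-1 XCT::SpXAP5 line and 19.5 ± 5.99 in Col-0 (SD, n = 3 each). From the highest mean, in prl1-2 at 33.1 ± 4.97, to the lowest, in Col-0, genotypes next to each other in order differed by less than the larger of their SDs.

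PRMT5 showed the tightest limits. It averaged 77.4 ± 17.3 CPM in xct-2, 62.0 ± 13.7 in xct-1, 74.7 ± 30.9 in prl1-2, 78.7 ± 12.7 in the xct-2 XCT::XCT line, 68.4 ± 3.96 in the xct-1 XCT::SpXAP5 line and 69.5 ± 19.4 in Col-0 (SD, n = 3 each). The libraries of every genotype overlapped those of Col-0. Its log2 fold changes lay between -0.18 and 0.17 in the 7 comparisons, and their 95% intervals between -0.88 and 0.87.

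STIPL1 averaged 14.4 ± 2.97 CPM in xct-2, 15.4 ± 6.75 in xct-1, 12.7 ± 8.61 in prl1-2, 13.4 ± 2.05 in the xct-2 XCT::XCT line, 15.0 ± 2.72 in the xct-1 XCT::SpXAP5 line and 15.2 ± 5.95 in Col-0 (SD, n = 3 each). Its means spanned less than the SD of the Col-0 libraries. The log2 fold changes were -0.36 to -0.02, with intervals from -1.38 to 0.96.

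SICKLE and LSM4 were too shallow for narrow limits. SICKLE averaged 9.57 ± 2.08 CPM in xct-2, 5.72 ± 6.85 in xct-1, 9.98 ± 3.95 in prl1-2, 4.92 ± 2.25 in the xct-2 XCT::XCT line, 5.74 ± 4.92 in the xct-1 XCT::SpXAP5 line and 7.40 ± 6.24 in Col-0 (SD, n = 3 each). Its log2 fold changes ran from -0.90 to 0.42 with intervals from -2.57 to 2.07, and every group overlapped Col-0. LSM4 had 0, 3 and 1 reads in the xct-1 XCT::SpXAP5 line, against 11, 9 and 1 in Col-0, which overlap at 1 read. Its log2 fold change there was -1.94 (SE 0.954, 95% interval -3.94 to 0.0559, adjusted p = 0.561, edgeR's quasi-likelihood test). In the other comparisons its log2 fold change lay between -1.44 and -0.13. With plain library totals in place of TMM scaling the median log2 change of all genes shifted by -0.38 in xct-1 XCT::SpXAP5 over Col-0, by -0.39 in xct-1 XCT::SpXAP5 over xct-1 and by 0.15 in prl1-2 over Col-0, and the values given are relative to the TMM scale.

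**Figure D4:**
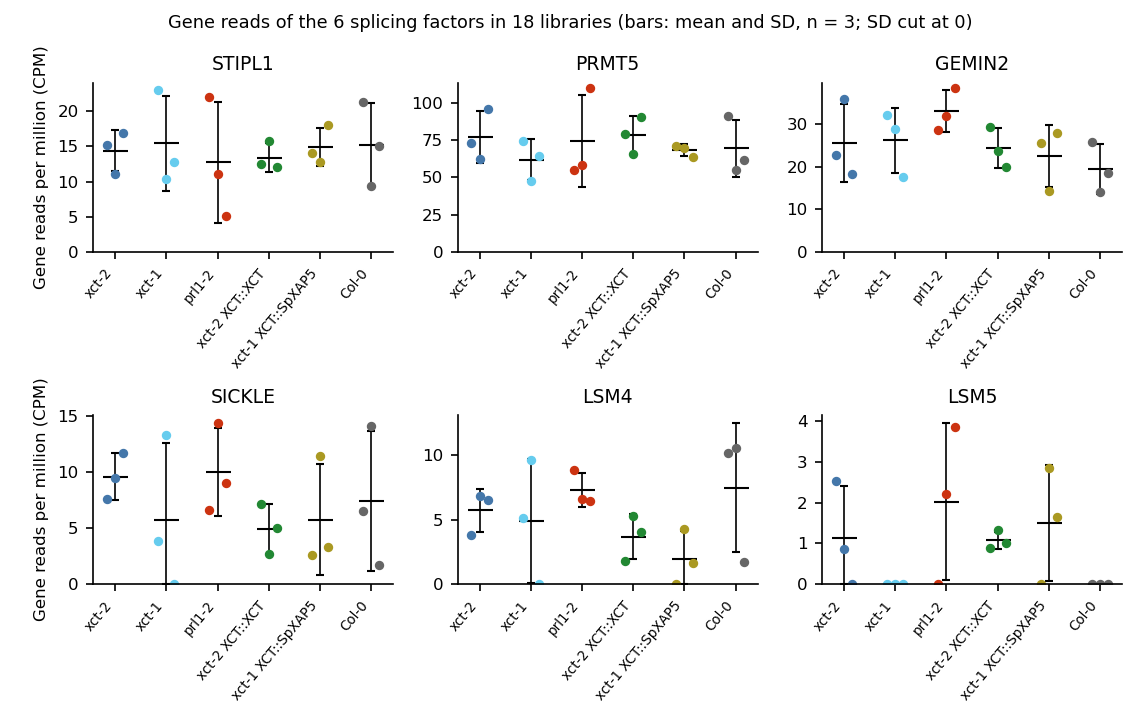
Normalised gene reads (CPM, TMM-scaled) of the 6 genes in the 18 libraries. Coloured points are libraries and black bars are means with SD (n = 3, cut at 0). GEMIN2 is at 28.7 to 38.5 CPM in prl1-2, above the 14.1 to 25.9 CPM of Col-0, and the other groups overlap Col-0, except that LSM5 is at 0 in Col-0 and above 0 in all 3 xct-2 XCT::XCT libraries.

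**Figure D5:**
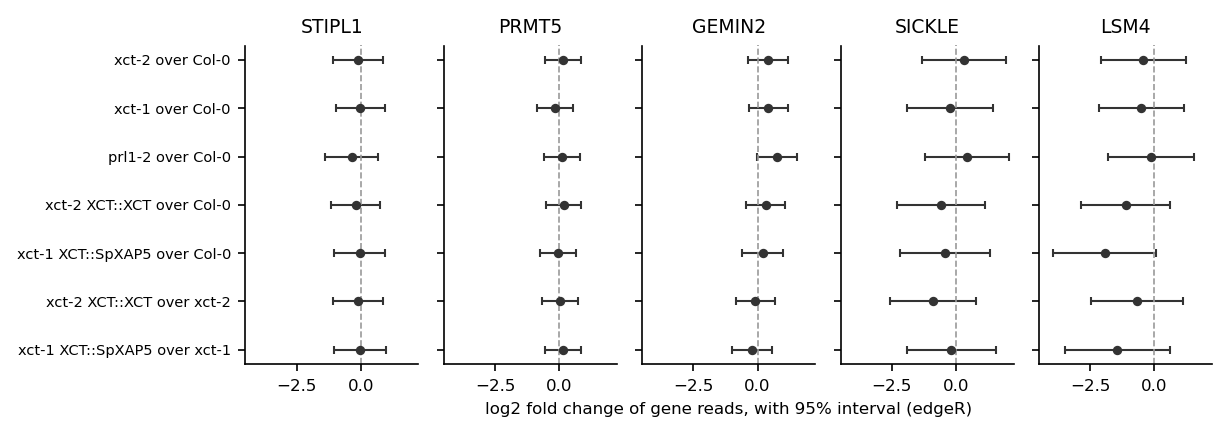
Log2 fold changes of gene reads with 95% intervals computed back from edgeR's F statistic, for the 5 genes that passed the filter, in the 7 comparisons. Each point is 1 comparison, and the dashed line marks no change. All intervals include 0, from PRMT5 with bounds of -0.88 and 0.87 to LSM4 with bounds of -3.94 and 1.53.

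Genes that work beside these 6 were read from lists chosen with earlier results of the data known. Of the 11 genes of the LSM ring, which includes LSM4 and LSM5, LSM4 alone passed the filter, with the values above. Of 13 Sm core genes, 1 passed, smB (AT4G20440), with a log2 fold change of -1.32 in xct-1 XCT::SpXAP5 over xct-1 (adjusted p = 0.578, edgeR's quasi-likelihood test). Of 6 genes for taking apart the intron lariat complex, STIPL1 included, 5 were tested and 0 were called. The smallest p was 0.0540, for the helicase gene AT3G62310, and 1 of the 18 tested junctions of this list was called, in prl1-2 over Col-0, where 9.74% of all junctions were. Of 9 arginine methyltransferase genes, PRMT5 included, 8 were tested and 0 were called in level, with a median log2 fold change between -0.32 (xct-1 XCT::SpXAP5 over Col-0) and 0.11 (prl1-2 over Col-0) in the 7 comparisons, beside -0.17 to -0.02 over all genes. It was above 0 in xct-2 and prl1-2 over Col-0 and below 0 in the other 5 comparisons. Among 4 further splicing genes linked to the clock the called levels were those of PRL1 in prl1-2 over Col-0 (log2 fold change -7.47, no bound since prl1-2 held 0 reads, adjusted p = 0.00143, edgeR's quasi-likelihood test) and of XCT in the xct-2 XCT::XCT line (5.39 over Col-0 and 6.18 over xct-2). Of the 17 tested junctions of these genes, 3 were called lower in xct-2 (2.52% of all junctions called), 1 in xct-1 (1.08%) and 1 in xct-1 XCT::SpXAP5 (1.14%) over Col-0. In xct-2 XCT::XCT over xct-2, 3 were called higher (2.63%). All of these called junctions lay in XCT.

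Of the 25 tested junctions of the arginine methyltransferase genes, which include the 9 of PRMT5, 1 was higher and 2 were lower in xct-2 over Col-0, and 1 was lower in each of xct-1, prl1-2 and xct-1 XCT::SpXAP5 over Col-0. The share called over all junctions was 9.74% in prl1-2, 2.52% in xct-2, 1.14% in xct-1 XCT::SpXAP5 and 1.08% in xct-1, so the 1 of 25 in prl1-2 was below the share over all junctions. All of these lay in relatives of PRMT5. In xct-2 the higher junction and 1 of the lower ones are alternative 3′ sites of PRMT4A that draw on the same reads. PRMT4B (AT3G06930), a methyltransferase of the CARM1 type, held 1 junction (chr3:2188236-2188497) in 38.3% ± 18.7 of reads in xct-2, 47.6% ± 7.30 in xct-1, 58.3% ± 7.43 in the xct-1 XCT::SpXAP5 line, 94.2% ± 5.41 in the xct-2 XCT::XCT line and 97.7% ± 3.98 in Col-0 (SD, n = 3 each). The log2 odds difference from Col-0 was -5.80 in xct-2 (SE 0.888, adjusted p = 0.000122), -5.12 in xct-1 (adjusted p = 0.00260) and -4.49 in the xct-1 XCT::SpXAP5 line (adjusted p = 0.0114) in edgeR's quasi-likelihood test. In xct-2 XCT::XCT over xct-2 it was 4.78 (adjusted p = 0.000457). In prl1-2 the junction was held by 98.9% ± 1.86 of reads.

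PRMT4A (AT5G49020), the second CARM1-type gene, has a pair of 3′ sites 6 bases apart, at the introns chr5:19872062-19872192 and chr5:19872062-19872198. Usage of the junction with the shorter intron fell to 47.9% ± 12.1 of reads in xct-2, against 91.0% ± 2.04 in Col-0, and usage of its alternative rose to 48.9% ± 9.56 in xct-2, against 7.21% ± 4.36 in Col-0 (SD, n = 3 each). The log2 odds differences were -3.43 (SE 0.561, adjusted p = 0.000288) and 3.57 (SE 0.602, adjusted p = 0.000436) in edgeR's quasi-likelihood test. Both were called in the opposite direction in xct-2 XCT::XCT over xct-2, with 2.67 (adjusted p = 0.00245) and -2.94 (adjusted p = 0.00195) by the same test. These junctions draw on the same reads, so the pair is 1 difference seen from both sides. The pair stood at 70.2% ± 4.30 and 29.3% ± 5.18 in xct-1 and at 75.2% ± 5.78 and 23.0% ± 5.24 in the xct-1 XCT::SpXAP5 line, and neither line was called against Col-0 (log2 odds differences -1.89 and 2.19 in xct-1, adjusted p = 0.246 and 0.160, and -1.61 and 1.84 in xct-1 XCT::SpXAP5, adjusted p = 0.446 and 0.408, edgeR). It stood at 83.8% ± 6.13 and 11.8% ± 3.90 in the xct-2 XCT::XCT line and at 93.4% ± 4.69 and 3.81% ± 3.31 in prl1-2. In prl1-2 another junction of PRMT4A was lower, held by 84.4% ± 0.996 of prl1-2 reads and 98.2% ± 3.04 of Col-0 reads (log2 odds difference -3.00, adjusted p = 0.0326), as was 1 junction of the PRP43-type helicase gene AT2G47250, held by 88.0% ± 0.707 of prl1-2 reads and 98.1% ± 1.61 of Col-0 reads (-2.72, SE 0.722, adjusted p = 0.0199).

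The genes whose levels followed each member most closely over the 18 libraries were found by Pearson's r of log2(CPM + 1), as a description that rests on shared libraries and depth. They were AT5G63710 (r = 0.884) and HCF152 (0.852) for STIPL1, ckl12 (0.885) and ALDH2C4 (0.849) for PRMT5, and VPS22 (0.904) and GTF2H2 (0.842) for GEMIN2. For SICKLE they were AT5G08180 (0.915) and OTC (0.867), and for LSM4 they were FT1, the gene AT2G03220 (0.855), and ACYB-2 (0.853).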

How the data were processed

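Iso-Seq reads of whole seedlings were measured in 18 libraries, 3 for each of 6 genotypes, grouped by sample title. Per the submitters' processing notes, minimap2 2.17 and the TAIR10 genome were used. The authors deposited raw counts per gene, exon bin and junction for each library, and 5 tables of pairwise comparisons that hold, per the file headers, a p-value, an adjusted p-value and a log2 ratio per feature. The finding of unannotated junctions and the strand setting are not stated in those notes. Positions come from the same tables and count from 1. Symbols came from a RefSeq table of assembly TAIR10.1, used for names only. GEMIN2 has no symbol there and was matched by its gene ID. No genome sequence was used, so no splice-site sequence is shown.

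Gene counts were tested with edgeR 4.0.16 (R 4.3.3), by its quasi-likelihood test after TMM scaling and filterByExpr. Usage was tested on 2 counts per library, the reads on a feature and the other reads of its gene, in a model of library terms and genotype-specific usage, for features with at least 20 reads on each side. Its log2 change is a log2 odds difference. Where a junction count exceeded its gene count, the other reads were set to 0. All 18 libraries entered each fit, Benjamini-Hochberg adjustment ran over all features tested in a comparison, and the threshold was 0.05. Loci of more than 1 gene, with 1.43% of reads, were left out. The procedure was checked on simulated data. The junctions changed there lay in genes with more reads than GEMIN2 and had intermediate usage. That check therefore does not cover genes as shallow as GEMIN2 or junctions that nearly all reads hold.

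Alternatives were DESeq2 1.42.0, plain library totals, other read minimums, an offset by gene count, diffSpliceDGE, the 6 libraries of a comparison alone, a covariate of junction reads per gene read, a replicate block, and leaving out each library. A comparison of the reads that share a splice site, and 4 comparisons of prl1-2 with the other genotypes, were added after the data were seen. Shares of single libraries have Wilson 95% intervals, and a count of 0 allows up to 3 reads. Those limits cover counting error only. Where the libraries of 2 genotypes are said not to overlap, the share of all features with no overlap was not counted. The most similar libraries of a genotype had a chi-square of 1.54 for each degree of freedom, so all 18 were kept as replicates.

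The members and gene lists were chosen with earlier results of these data known. The text names every tested gene and every called feature of the 6 genes, the unannotated junctions tested, for each gene the junction and bin with the smallest p and with the widest range of usage, the 2 genes most alike in level, and, of each list, the called genes or the gene with the smallest p. PRMT5 introns 7 and 20, GEMIN2 intron 3 and the junctions of SICKLE, LSM4 and LSM5 were named after their values were seen.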

Additional observations from a re-analysis of the deposited data

Results flagged for a closer look

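Direct comparisons of prl1-2 with the other genotypes drew attention to GEMIN2 and PRMT5 because the difference itself passed the test. All were added after the data were seen, use the other reads of the gene as the comparison, and rest on the same prl1-2 libraries. In edgeR's quasi-likelihood test, 2 of the 12 tested junctions were called in prl1-2 over xct-2, where 9.98% of all junctions were, and 0 in prl1-2 over xct-1, where 8.7% were. In prl1-2 over xct-1, 7 of the 12 had an unadjusted p under 0.05, beside 24.1% of all junctions. In prl1-2 over xct-2 XCT::XCT 4 were called (11% of all), and in prl1-2 over xct-1 XCT::SpXAP5 3 were (12% of all).

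The unannotated first-intron junction of GEMIN2 was lower by a log2 odds difference of -1.98 in prl1-2 over xct-2 (adjusted p = 0.0489, edgeR), of -2.48 over xct-2 XCT::XCT (adjusted p = 0.0158) and of -2.98 over xct-1 XCT::SpXAP5 (adjusted p = 0.00773). The annotated first-intron junction was higher by 2.06 in prl1-2 over xct-2 XCT::XCT (adjusted p = 0.0309, edgeR) and by 2.52 over xct-1 XCT::SpXAP5 (adjusted p = 0.0161). It differed by 1.58 over xct-2 (adjusted p = 0.0957) and 1.77 over xct-1 (adjusted p = 0.0673), which did not pass.

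The junction of GEMIN2 intron 2 was lower by -2.91 in prl1-2 over xct-2 (adjusted p = 0.0413, edgeR) and by -5.56 over xct-2 XCT::XCT (adjusted p = 0.00737), where all 71 reads of the XCT::XCT line held it, so that the fitted value is no bound. For PRMT5, intron 6 was lower by -2.66 in prl1-2 over xct-2 XCT::XCT (adjusted p = 0.0432, edgeR), with 10 of 164 reads without the junction in prl1-2 and 2 of 230 in xct-2 XCT::XCT. PRMT5 intron 21 was lower by -5.08 in prl1-2 over xct-1 XCT::SpXAP5 (adjusted p = 0.0249, edgeR), with 14 of 164 reads without it in prl1-2 and 0 of 144 in xct-1 XCT::SpXAP5. That fitted value is no bound either. The summed prl1-2 share was 4.10 times the limit of 3 reads over the xct-1 XCT::SpXAP5 line. The counting error of the prl1-2 reads is left out of that ratio. Of those 14 reads, 11 came from prl1-2 replicate 3 and 0 from replicate 1, so the libraries of prl1-2 did not all differ from the xct-1 XCT::SpXAP5 line.

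Leaving out 1 library ended most of these calls. In prl1-2 over xct-2 the intron 2 call was lost without any 1 of the xct-2 libraries (adjusted p 0.0598 to 0.144), and the call of the unannotated junction without any prl1-2 library or without xct-2 replicate 1 or 3 (adjusted p 0.0608 to 0.224, lowest size -1.37 without prl1-2 replicate 2). In prl1-2 over xct-2 XCT::XCT the annotated junction lost its call without prl1-2 replicate 2 or 3 or any XCT::XCT library (adjusted p 0.0524 to 0.145), and the unannotated one without prl1-2 replicate 2 or XCT::XCT replicate 1 or 3 (0.0573 to 0.0853), whereas intron 2 stayed called without each XCT::XCT library in turn. Without a prl1-2 library intron 2 was not tested in any comparison, since fewer than 20 reads then lacked its junction. In prl1-2 over xct-1 XCT::SpXAP5 the unannotated junction lost its call without XCT::SpXAP5 replicate 1 (-2.54, adjusted p = 0.0554, edgeR), and the annotated one without prl1-2 replicate 2 or XCT::SpXAP5 replicate 1 or 3 (0.0688 to 0.0882). The PRMT5 intron 6 call was lost without any 1 of the libraries compared (adjusted p 0.0547 to 0.195). That of PRMT5 intron 21 was lost without prl1-2 replicate 3 (-4.01, adjusted p = 0.180, edgeR) and without any XCT::SpXAP5 library (0.0624 to 0.0773).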

How the results depend on the processing

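The 3 calls in prl1-2 over Col-0 kept their direction under every alternative run. With a minimum of 10 reads intron 2 of GEMIN2 stood at -3.20 (adjusted p = 0.0583). An offset by gene count gave -0.27 for intron 2, 1.52 for the annotated and -1.39 for the unannotated first-intron junction, and diffSpliceDGE gave -0.11, 1.65 and -1.22, so that 0 of the 12 junctions were called in either. Those values are log2 ratios of usage and log2 fold changes relative to the gene's other junctions, not log2 odds. DESeq2 gave 2.52 for the annotated junction, -2.79 for the unannotated one and -3.40 for intron 2, with no adjusted p. Leaving out 1 Col-0 library at a time moved intron 2 between -4.53 and -2.94, and it fell under the read minimum without any 1 prl1-2 library. Leaving out 1 library of either genotype moved the annotated junction between 2.00 and 2.86, the unannotated junction between -3.23 and -2.19, and the number called between 0 and 2. On the reads of the first-intron sites alone, the annotated and unannotated sites gave 2.25 and -2.25 without prl1-2 replicate 2, 2.44 and -2.44 without Col-0 replicate 1, and 0 calls in both cases. Leaving out a library also leaves fewer samples, and the cause of these changes was not tested.

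Correlations of same-numbered deviations between prl1-2 and Col-0 were -0.146, 0.654 and 0.165 for replicates 1, 2 and 3. The replicate 2 libraries thus deviated in part alike, while replicates 1 and 3 did so little or not at all. Against Col-0 the correlations were -0.211, 0.760 and 0.655 in xct-2 and -0.134, 0.796 and 0.740 in xct-1. In the transgenic lines against Col-0 they lay between -0.550 and 0.497. The source of these correlations was not tested. With a replicate block the values were -2.73 for the unannotated and 2.44 for the annotated first-intron junction and -3.37 for intron 2, all called. The block moved prl1-2 over xct-2 to -2.78 for intron 2 (adjusted p = 0.0551) and prl1-2 over xct-2 XCT::XCT to -2.503 for PRMT5 intron 6 (adjusted p = 0.0629), which were then not called. Over all junctions, calls in prl1-2 over Col-0 numbered 4929, against 1500 in DESeq2, 8374 with the covariate, 126 with the offset, 0 in diffSpliceDGE, 2736 with the 6 libraries alone, 274 on reads that share a splice site, and 1842 to 4081 without 1 library. Gene calls numbered 26, against 51, 704 with the covariate, 11 with plain totals, 9 with 6 libraries and 9 to 18 without 1 library. Bin calls numbered 29, against 649 with the covariate, 136 with the offset, 45 with a minimum of 50 reads and 0 to 5 without 1 library.

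No gene level of the 5 genes was called in any of 402 alternative values, and 51 of them changed sign, all for log2 fold changes under 0.59 in size. STIPL1 turned to 0.0136 in xct-1 over Col-0 with 6 libraries, to 0.000465 in xct-1 XCT::SpXAP5 over Col-0 with the block, and to 0.00361 (DESeq2) and 0.00326 (block) in xct-1 XCT::SpXAP5 over xct-1. GEMIN2 turned to -0.167 in xct-1 XCT::SpXAP5 over Col-0 with plain totals. SICKLE turned to 0.295 over Col-0 and 0.632 over xct-1 in xct-1 XCT::SpXAP5 with the covariate. PRMT5 turned to -0.00722 (DESeq2), -0.0201 (totals) and -0.0306 (6 libraries) in xct-2 XCT::XCT over xct-2, and to -0.184 (totals) and -0.0360 (6 libraries) in xct-1 XCT::SpXAP5 over xct-1.

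Without 1 library, STIPL1 ranged over Col-0 from -0.388 to 0.235 in xct-2, -0.417 to 0.330 in xct-1, -0.922 to 0.0449 in prl1-2, -0.465 to 0.158 in xct-2 XCT::XCT and -0.301 to 0.323 in xct-1 XCT::SpXAP5, and from -0.277 to 0.0391 in xct-2 XCT::XCT over xct-2 and -0.269 to 0.401 in xct-1 XCT::SpXAP5 over xct-1. SICKLE ranged over Col-0 from -0.0781 to 1.05 in xct-2, -1.82 to 0.494 in xct-1, -0.979 to 0.175 in xct-2 XCT::XCT and -1.35 to 0.356 in xct-1 XCT::SpXAP5, and from -1.12 to 1.41 in xct-1 XCT::SpXAP5 over xct-1. PRMT5 ranged over Col-0 from -0.0466 to 0.393 in xct-2, -0.337 to 0.0724 in xct-1, -0.288 to 0.350 in prl1-2 and -0.168 to 0.244 in xct-1 XCT::SpXAP5, from -0.119 to 0.220 in xct-2 XCT::XCT over xct-2, and from -0.00476 to 0.324 in xct-1 XCT::SpXAP5 over xct-1. LSM4 ranged from -0.524 to 0.138 in prl1-2 over Col-0. GEMIN2 ranged from -0.273 to 0.239 in xct-2 XCT::XCT over xct-2 and from -0.403 to 0.0229 in xct-1 XCT::SpXAP5 over xct-1. Depth limits SICKLE, LSM4 and LSM5 most, with at most 18 reads in any library.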
